A study of Mus musculus with 9 samples.

Results

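The regions described here are stretches of the mouse genome with an E protein peak in both CD73- and CD73+ cells and none in DN3 precursors. Both CD73 populations came from DN3 cells given a gamma-delta T cell receptor. They were chosen by merging the peaks of all 6 deposited lists on chromosomes 1 to 19, X and Y wherever peaks overlapped by at least 1 bp. A merged region was kept if it held no DN3 peak of E2A or HEB, at least 1 CD73- peak and at least 1 CD73+ peak, of either factor. That selection left 1669 of 58451 merged regions, or 2.86%, called shared CD73 regions below. Another 13950 regions had CD73- peaks only, 24370 had CD73+ peaks only and 2339 had peaks in DN3 cells and in both CD73 populations. Presence of a peak chose the regions, so the number of regions and the lists behind them are a description, with no test.

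Chromatin immunoprecipitation and sequencing was done in BALB/c cells grown from fetal liver progenitors that lacked Rag2, the recombinase subunit without which no T cell receptor gene is rearranged. The DN3 group was cells of that stage (CD4- CD8- CD25+ CD44- thymocyte precursors) harvested on day 7 of culture. For the other groups, such cells received the KN6 gamma-delta receptor overnight from GP+E cells that produce a retrovirus with a YFP marker (MIY-KN6), in medium with polybrene, IL7 and Flt3L, and YFP+ DN3 cells then spent 3 days on monolayers of OP9-DL1 (stromal cells displaying a Notch ligand), a culture the labels also give for the DN3 group. After 10 min in 1% formaldehyde they were sorted as Thy1+ YFP+ CD4- CD8- CD24+ cells, either CD73-, which per the labels still had alpha-beta potential, or CD73+, which had lost it and were gamma-delta committed. All 3 stages carried the Rag2 deficiency, and both CD73 groups carried the same single receptor. Each stage had an input, an E2A and an HEB library, and the authors joined the duplicates of each into a single file, so every group is 1 pooled list without any measure of replicate error. The depth of the libraries is unknown here, and a region without a called DN3 peak is not shown to lack the factor there.

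E2A and HEB are E proteins, basic helix-loop-helix factors encoded by Tcf3 and Tcf12. They bind DNA as dimers at E-boxes, short sites with the letters CANNTG, in which N is any base. In thymocyte precursors they drive T lineage genes and hold back division and further differentiation, and signals from the T cell receptor raise Id proteins, chiefly Id3, which keep E proteins from DNA.

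Sequence could be shown for the shared CD73 regions that reached a gene start, since 12 of them overlapped 15 of the 32851 RefSeq promoter windows (250 bases before to 50 after a start site, build GRCm38.p6). The 7 stretches below are the bases common to region and window, ended at most 25 bases past the start site, 5′ to 3′ on the strand of the gene, with CANNTG in capitals. Ptma is the only one of the 12 regions with HEB scores of at least 100 in both populations, and Nipal1 has a pair of E-boxes. Kmt2a and Mbd3 belong to chromatin regulators, and the histone genes stand for the group with the highest CD73+ HEB scores of the 12.
Ptma, chr1:86526307-86526581, plus strand: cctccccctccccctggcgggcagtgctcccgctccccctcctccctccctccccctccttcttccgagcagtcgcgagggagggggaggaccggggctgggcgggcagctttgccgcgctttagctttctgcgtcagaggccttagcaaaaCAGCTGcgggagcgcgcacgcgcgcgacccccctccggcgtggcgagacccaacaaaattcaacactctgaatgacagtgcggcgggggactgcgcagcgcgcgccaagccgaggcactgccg
Nipal1, chr5:72647546-72647716, plus strand: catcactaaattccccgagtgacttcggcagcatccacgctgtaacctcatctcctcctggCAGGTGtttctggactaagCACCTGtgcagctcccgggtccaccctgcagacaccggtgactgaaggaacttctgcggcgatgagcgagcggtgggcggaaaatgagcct
Kmt2a, chr9:44881420-44881539, minus strand: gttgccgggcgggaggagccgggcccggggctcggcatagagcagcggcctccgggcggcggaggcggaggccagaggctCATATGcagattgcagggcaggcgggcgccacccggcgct
Mbd3, chr10:80399732-80399781, minus strand: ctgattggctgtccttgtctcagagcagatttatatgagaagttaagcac
H2ac22, chr13:21787224-21787247, minus strand: CAGTTGtcagttctttctttttgt
H2ac11, chr13:22042925-22042963, minus strand: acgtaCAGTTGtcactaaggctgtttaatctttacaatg
H2bc14, chr13:21721794-21721877, plus strand: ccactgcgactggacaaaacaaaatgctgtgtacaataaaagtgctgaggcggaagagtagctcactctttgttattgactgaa
These are bases of the reference genome, not read from the BALB/c cells. The Ptma stretch holds CAGCTG, the palindromic E-box, and Nipal1 holds CAGGTG followed by CACCTG, its reverse complement. H2ac22 and H2ac11, which encode H2A histones, both hold CAGTTG next to the start site. The Kmt2a stretch holds CATATG, and the shown bases of Mbd3 and H2bc14 hold no CANNTG. The like stretches of H3c4, H2ac24 and Zfp664 were left out and hold none either, so the stretches shown over-represent E-boxes. H2ac24 was left out although its CD73+ HEB score (266.52) was above that of H2ac22 (176.16).

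Over the 12 regions at promoter windows, 5 held CANNTG within the shared bases. Counted over whole windows, CANNTG was in 12 of 15 (80.0%), against 72.3% of all promoter windows. The form CAGNTG, read on both strands so that CACCTG is included, was in 10 of 15 windows (66.7%, 95% Wilson interval 41.7 to 84.8), against 51.4% of all windows. Windows met by regions with peaks in DN3 cells and both CD73 populations held it in 66.7%, those of CD73- only regions in 47.1% and those of CD73+ only regions in 54.5%. CAGCTG, which overlaps the CAGNTG count, was in 3 of 15 windows (20.0%) against 16.3% of all. The interval for the shared CD73 regions spans all of these CAGNTG shares, and divergent histone pairs such as H2ac22 with H2bc22 count 1 E-box in 2 windows. A match is a description of the letters, not a binding site.

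Most shared CD73 regions rested on the fewest peaks that the selection allows. Exactly 2 lists were behind 1384 of them (82.9%), 3 lists behind 239 and all 4 CD73 lists behind 46 (2.76%). The largest group, 644 regions (38.6%), had E2A peaks in both populations and no HEB peak. Next came 398 regions (23.8%) with HEB in CD73- and E2A in CD73+ cells, 188 (11.3%) with the reverse, and 154 (9.23%) with HEB alone in both populations. The same factor was present in both populations at 1083 regions (64.9%, 62.6 to 67.1), and 586 (35.1%) had a different factor on each side only. With E2A and HEB exchanged in CD73+ cells, the same-factor share was 52.2%. This alternative was chosen after seeing the data, because earlier work on them had questioned those labels. The sample titles give the labels as used here and state no such doubt. E2A and HEB peaks met within CD73- cells at 185 regions (11.1%) and within CD73+ cells at 146 (8.75%).

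**Figure D1:**
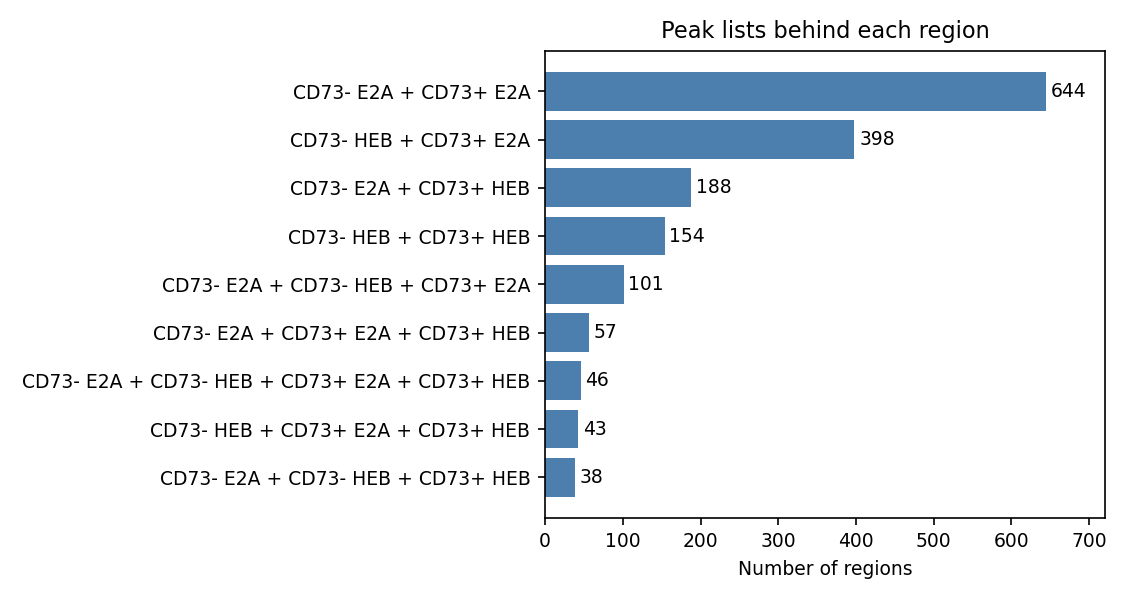
Horizontal bars give the number of shared CD73 regions (x axis) for each of the 9 possible combinations of peak lists (y axis). E2A in both populations without HEB leads with 644 regions, and all 4 lists together account for 46.

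For comparison, regions that also had a DN3 peak, which were wider (median 1060 bp against 221 bp), combined more lists. Of those 2339 regions, 2060 (88.1%) had the same factor in both CD73 populations and 733 (31.3%) had all 4 CD73 lists. Shares with another denominator, all regions of 1 list without DN3, follow. Of 9866 CD73- E2A regions without DN3, 8.60% met a CD73+ E2A peak, which was 4.06% of the 20880 CD73+ E2A regions without DN3. Of 6249 CD73- HEB regions without DN3, 4.50% met CD73+ HEB, which was 5.03% of the 5585 CD73+ HEB regions, and 9.41% met the longer CD73+ E2A list. CD73+ HEB regions met CD73- E2A, with 9866 regions against 6249 for CD73- HEB, in 5.89%. Seen from the CD73- side, CD73+ HEB was met by 4.50% of the HEB regions and 3.33% of the E2A regions. The order of the 2 shares thus depends on the denominator, and these shares are not adjusted for list length.

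The selection required peaks of the 2 populations to overlap or to be joined by overlaps, so their closeness is set by it and is given as a description. The median overlap of the best overlapping pair was 116 bp (quartiles 81 and 147), with midpoints a median of 34.5 bp apart. At 31 regions the overlap was 10 bp or less. Regions were 65 to 2261 bp wide, with a median of 221 bp. Peaks of the CD73 lists had median widths of 149 to 181 bp, while DN3 E2A and HEB peaks had median widths of 617 and 721 bp. A wider DN3 peak removes more neighbours under the selection, and the part of this difference in the number of regions was not tested.

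The score of a peak is the authors' value of minus 10 times the log10 of its MACS p-value, at least 50 in these lists, and it ranks peaks within 1 list only. Peaks of the shared CD73 regions had median scores close to those of their lists, with fewer high scores in 3 of the 4. Their median scores were 59.3 in CD73- E2A, 61.0 in CD73- HEB, 65.3 in CD73+ E2A and 61.3 in CD73+ HEB, against 58.3, 61.5, 61.5 and 63.2 over the whole lists. The median percentile ranks were 53.7, 47.7, 61.9 and 45.8. CD73+ E2A peaks thus ranked above the middle of their list, and CD73+ HEB peaks somewhat below it. A score of at least 100 was reached by 4.06%, 5.19%, 9.85% and 9.57% of these peaks, against 8.79%, 14.3%, 7.02% and 24.1% of the 4 lists. The intervals for the shared CD73 regions lay below the list for CD73- E2A (3.04 to 5.41), CD73- HEB (3.85 to 6.96) and CD73+ HEB (7.35 to 12.4), and above it for CD73+ E2A (8.34 to 11.6). The whole lists also hold the peaks at regions with a DN3 peak. Counted by region, 14.4% (12.8 to 16.1) of shared CD73 regions had a best CD73 score of at least 100. The share was 1.39% of CD73- only, 4.11% of CD73+ only and 73.5% of regions with peaks at all 3 stages. A shared CD73 region has peaks of more than 1 list, so more peaks that could reach 100.

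**Figure D2:**
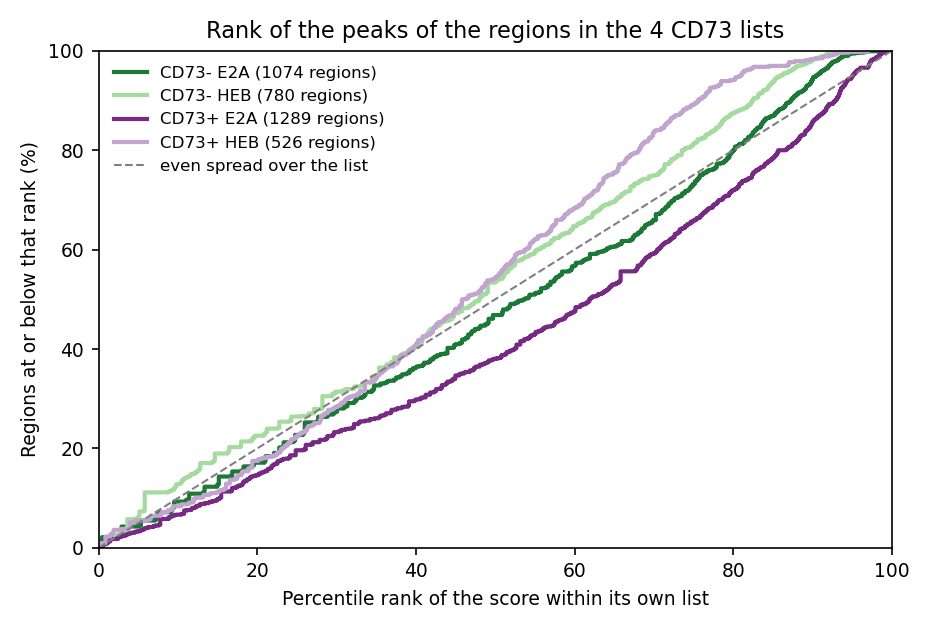
Each line gives the share of shared CD73 regions (y axis, percent) whose peak lies at or below a percentile rank within its own list (x axis), for the 4 CD73 lists. The CD73+ E2A line runs below the dashed line of an even spread, with a median of 61.9, and the CD73+ HEB line above it in its upper part, with a median of 45.8.

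Scores in the 2 populations were weakly related over the shared CD73 regions. Spearman's rho between CD73- and CD73+ was 0.14 for E2A over 848 regions and 0.01 for HEB over 281. At regions with a DN3 peak it was 0.51 over 1002 and 0.60 over 1791. These correlations are across regions within a pair of pooled lists, each list with 1 depth and 1 input for all its regions, and are given as a description. A score of at least 100 in both populations was found at 17 shared CD73 regions (1.02%, 0.637 to 1.63), against 1019 (43.6%) of regions with DN3 peaks as well. Other settings changed the set of regions too, since dropping peaks can drop DN3 peaks that had excluded a region. The share scoring at least 100 in both was 3.62% of 1851 regions without peaks wider than 3000 bp. With E2A lists alone it was 4.82% of 1078 regions, and with HEB lists alone 6.50% of 523. At the other end, 465 of the shared CD73 regions had a best CD73- score under 55, 245 a best CD73+ score under 55, and 74 both.

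The highest ranking regions were spread over genes of many kinds. Regions were ordered by a joint rank, the lower of the best CD73- and the best CD73+ percentile. The first lay on chromosome 1 at 44460941 to 44461416, 89964 bp from Gulp1, an adaptor in the engulfment of dying cells, and scored 151.83 for E2A and 54.29 for HEB in CD73- and 156.77 for E2A in CD73+ cells. The second lay on chromosome 15, 2167 bp from the olfactory receptor gene Olfr288, and scored 53.12 and 182.66 in CD73- and 309.63 for E2A in CD73+ cells, the highest CD73+ E2A score of the group. Both had E2A on either side and HEB in CD73- cells only. Inside Dclk2, a microtubule-associated kinase gene, the scores were 117 and 72.79 in CD73- and 115.92 for E2A in CD73+ cells. Inside Ranbp17, a nuclear transport receptor gene, they were 120.09, 74.74 and 99.42. Inside Kcnq1, a potassium channel gene, the 2 populations differed in factor, with HEB at 255.27 in CD73- and E2A at 96.94 in CD73+ cells. The region 4511 bp from Calm2, which encodes calmodulin, a calcium sensor, scored 77.88 and 149.51 in CD73- and 153.11 for E2A in CD73+ cells. None of these 6 regions had a peak in all 4 lists.

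Among regions with E2A in both populations and no HEB, the first were inside Rtl9, a retrotransposon-derived gene, at 105.69 in CD73- and 135.88 in CD73+ cells, and 6386 bp from Gm10778 at 104.4 and 123.06. Inside Chchd3, a gene for a mitochondrial membrane protein, the E2A scores were 93.63 and 103.55. The region 5352 bp from the chemokine receptor gene Ccr1l1 scored 92.86 and 157.23. In each of these 4 regions the CD73+ score was the larger, though scores of different lists are not on a common scale. Of regions with all 4 lists, the one inside Ntm, a neural cell adhesion gene, scored 98.23 and 88.94 in CD73- and 143.09 and 56.34 in CD73+ cells. The others of the 12 highest had Ctxn3, Mrps31, 9530057J20Rik and Gm20906 as nearest genes.

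HEB in both populations marked 281 regions (16.8%), and those without E2A were led by Evi5 and Ptma. Inside Evi5, a cell cycle regulator, HEB scored 98.02 in CD73- and 255.76 in CD73+ cells. At the promoter of Ptma, which encodes prothymosin alpha, an abundant acidic nuclear protein of dividing cells, HEB scored 110.83 and 123.36. Inside Parp11 the HEB scores were 81.93 and 107.85, and 532938 bp from N6amt1 they were 144.22 and 90.73. Evi5, Ptma and Parp11 thus had an HEB peak inside or at the start of the gene in both populations. Of regions with different factors only, those following Kcnq1 and Mrps31 were 141504 bp from Frmd6, with HEB at 127.43 in CD73- and E2A at 198.12 in CD73+ cells, and inside Robo1, a receptor for Slit guidance proteins, at 127.05 and 96.94.

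Shared CD73 regions lay in genes as seldom as regions of 1 CD73 population, and less often than those with DN3 peaks. Of the 1669 regions, 465 (27.9%, 25.8 to 30.1) overlapped the span of a protein-coding gene, against 28.6% of CD73- only, 27.7% of CD73+ only and 47.0% (45.0 to 49.0) of regions with peaks at all 3 stages. More than 100 kb from any protein-coding gene lay 563 (33.7%), against 33.7%, 34.7% and 16.4%. Start sites, known for all chromosomes but 18, were within 1 kb of 36 of 1623 regions (2.22%, 1.61 to 3.06). The share was 1.23% for CD73- only, 1.94% for CD73+ only and 11.0% for regions of all 3 stages. The intervals cover counting error only, and no p was computed because each group is 1 pooled list.

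**Figure D3:**
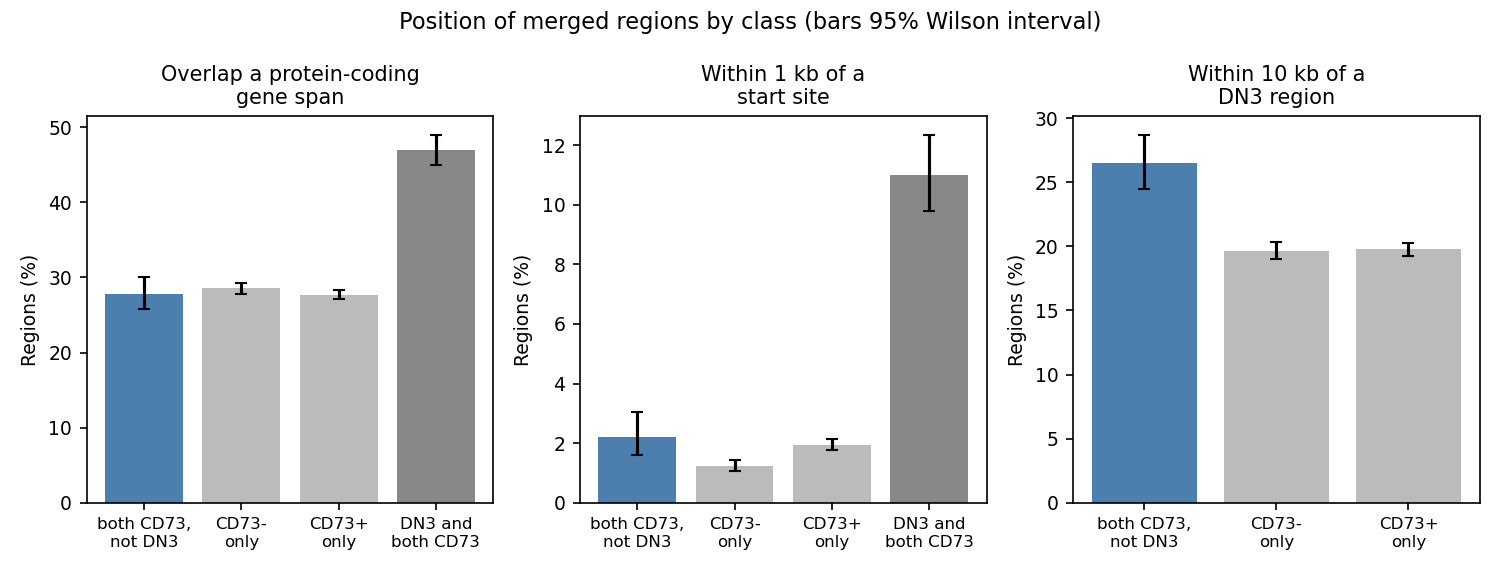
Bars give the percent of merged regions (y axis) that overlap a protein-coding gene span, lie within 1 kb of a start site or lie within 10 kb of a region with a DN3 peak, with 95% Wilson intervals, for shared CD73 regions (blue) and other classes. Shared CD73 regions stand at 27.9%, 2.22% and 26.5%, and regions with DN3 peaks are left out of the third panel because they meet it by definition.

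Shared CD73 regions were nearer to DN3 regions than those of 1 CD73 population. Within 10 kb of a region with a DN3 peak lay 443 (26.5%, 24.5 to 28.7), against 19.7% of CD73- only and 19.8% of CD73+ only regions. Within 1 kb lay 155 (9.29%), against 4.69% and 4.84%. Without a cluster on chromosome 8 described below, left out after seeing the data, the shares were 23.6% and 6.85%. With the cluster kept and the lists as labelled, regions with a CD73+ HEB peak were within 10 kb in 37.1%. Those with CD73+ E2A and no CD73+ HEB were in 21.7%. All 64 regions of the cluster lay within 10 kb and 45 of them had a CD73+ HEB peak, and this split was not recomputed without them. The region nearest to a DN3 peak, 9 bp from it and 125506 bp from Abca13, had HEB at 59.05 in CD73- and 53.07 in CD73+ cells. Others lay 13 bp from a DN3 peak, inside Sntb1, and 17 bp, inside Pcdh9. Just outside the selection were regions that a DN3 peak overlapped by 3 bp in Rapgef1, 9 bp in Rap1gap2 and 62 bp in Acer1. Rapgef1, which encodes an exchange factor for the small GTPase Rap1, had scores of 68.31 and 55.26 in CD73- cells, 79.21 for HEB in CD73+ cells, and 50.36 and 60.04 in DN3 cells. In all, 22 shared CD73 regions lay within 100 bp of a DN3 peak.

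As labelled, regions with HEB in both populations were near a start site more often than those with E2A in both. HEB in both populations was near a start site at 17 of 271 regions (6.27%, 3.95 to 9.82), and E2A in both at 10 of 821 (1.22%, 0.663 to 2.23). With a CD73+ HEB peak the count was 23 of 509 (4.52%), and with CD73+ E2A and no CD73+ HEB it was 13 of 1114 (1.17%). Leaving out 11 regions at histone genes, the shares were 3.42% for HEB and 0.977% for E2A in both populations. With E2A and HEB exchanged in CD73+ cells the order turned, at 10 of 570 (1.75%, 0.956 to 3.20) for HEB and 7 of 319 (2.19%, 1.07 to 4.46) for E2A, with overlapping intervals. All 12 regions that overlapped a promoter window had a CD73+ HEB peak, 9 had CD73- HEB, 4 had CD73- E2A and 4 had CD73+ E2A. Of these 12, 7 were at histone genes and the other 5 were at Ptma, Nipal1, Mbd3, Zfp664 and Kmt2a.

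Histone genes made up 11 of the 36 regions near start sites, a group chosen after its values were seen. Histone genes of the replication type are packed in clusters, mainly on chromosome 13 in the mouse, and are transcribed when DNA is copied. Of 64 such genes, 21 had a shared CD73 region within 1 kb, through 11 regions, while 2.03% of all protein-coding genes had one in the span or within 1 kb. The group was chosen for this, so nothing is read from the difference. In 10 of the 11 the CD73+ HEB score was at least 100, from 102.81 to 342.93 with a median of 216.7 and a median percentile rank of 90.0. HEB in CD73- cells scored 58.46 to 79.52 at the 8 regions that had it, and E2A stayed under 80 in both populations, with 52.6 to 61.95 in CD73- cells at 4 regions and 51.83 to 77.48 in CD73+ cells at 6. These scores belong to the list labelled CD73+ HEB, and would be E2A scores if the CD73+ E2A and HEB labels were exchanged. In all, 10 of the 51 shared CD73 regions with a CD73+ HEB score of at least 100 were at histone genes.

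The highest of these was 167 bp from H2bc14, an H2B gene, with HEB at 62.99 in CD73- and 342.93 in CD73+ cells. At H2ac11 the scores were 63.35 for HEB in CD73- cells, 63.38 for E2A and 286.86 for HEB in CD73+ cells. At H2ac24 they were 65.12, 55.14 and 266.52, and at H2ac22 they were 74.8, 75.8 and 176.16, both in the same order. These 3 H2A genes had the same 3 lists. H2ac13 had all 4 lists, with 59.16 for E2A and 79.52 for HEB in CD73- and 77.48 and 212.08 in CD73+ cells. H3c4 and H3c2, which encode H3 histones, had E2A in CD73- cells at 61.95 and 52.6 and HEB in CD73+ cells at 150.89 and 173.91. H2bc12 was the exception without HEB, with E2A at 56.33 and 51.83. H2ac18, on chromosome 3, was the lowest of the 10 with CD73+ HEB, at 58.46 for HEB in CD73-, 62.33 for E2A and 102.81 for HEB in CD73+ cells.

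The shared CD73 regions were a minority of all regions at histone genes. Of 57 merged regions within 1 kb of a histone gene, 35 had CD73+ peaks only, all 35 with HEB, and 12 of those scored at least 100. CD73+ HEB was present at 52 of the 57, CD73- HEB at 13, CD73+ E2A at 10, CD73- E2A at 6, DN3 E2A at 5 and DN3 HEB at 4. The 3 regions with peaks at all 3 stages had DN3 scores of 51.51 to 57.62, just above the minimum. Histone genes of the same type resemble each other in sequence. How reads of similar genes were aligned could not be checked here, so the position and number of these regions are uncertain.

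**Figure D4:**
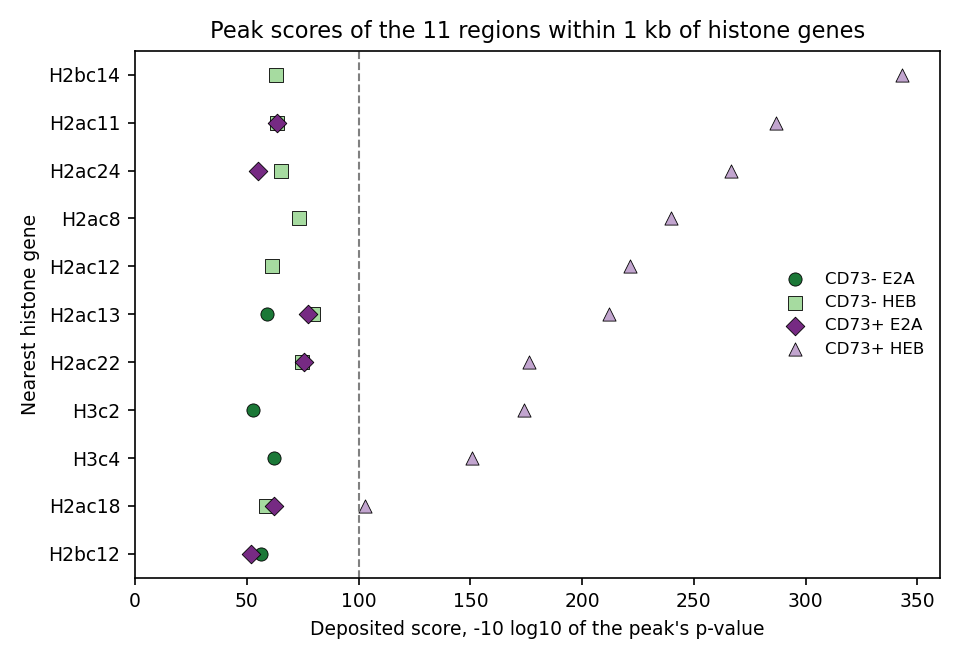
Points give the deposited score (x axis, minus 10 times the log10 of the p-value) in each CD73 list at the 11 shared CD73 regions within 1 kb of a histone gene (y axis), with the dashed line at 100. CD73+ HEB lies between 102.81 and 342.93 at 10 of them, while the other lists lie under 80.

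Regions at the other promoters and at 2 further genes near start sites were as follows. At Kmt2a, which encodes a histone H3 lysine methyltransferase, HEB scored 62.65 in CD73- and 52.8 in CD73+ cells. The region over the Mbd3 promoter, a subunit of the NuRD complex, scored 56.1 and 91 for HEB and also lay 9400 bp from Tcf3, the E2A gene itself. Zfp664 had HEB at 66.63 and 54.21, and Nipal1 had E2A at 54.2 in CD73- and HEB at 63.12 in CD73+ cells. Near Srcap, a chromatin remodeller, HEB scored 52.65 and 88.02, and near Ago1, an Argonaute gene of small RNA silencing, 51.95 and 100.44. All of these CD73- scores were under 70.

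A protein-coding gene was counted if a shared CD73 region lay in its span or within 10 kb. That held for 660 of 21900 genes (3.01%), of which 389 (58.9%) also had a region with a DN3 peak by the same measure. The share with a DN3 region over all genes, or over genes of like span, was not computed, so nothing is read from the 58.9%. The 660 genes were long, with a median span of 59859.5 bp against 17146 bp over all genes. Of genes with a span of at least 500 kb, 86 of 227 (37.9%) had a shared CD73 region. Lists of T cell genes, chosen with earlier results of these data known, were near the background. Without the lists of other cell types, 10 of 291 genes (3.44%) had one.

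No shared CD73 region was found at the 20 genes of the T cell receptor complex and its proximal signalling. The count was also 0 for 20 genes of the response to receptor signals, 20 of the gamma-delta programme, 18 chemokine receptor and homing genes and 18 costimulatory and TNF receptor genes. It was 0 as well for 19 cell cycle and survival genes, 18 NFAT, NF-kB and AP-1 genes, 21 genes of protein kinase C, Ras and PI3K signalling and 13 quiescence genes. At the background of 3.01%, a list of this size would hold few genes or none, so these counts of 0 are no result about the lists.

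Each of the other T cell lists, taken to include chromatin regulators and adhesion genes, had a region at 1 to 3 genes. Trgc1, a constant gene of the T cell receptor gamma chain, had one 5101 bp away with HEB at 62.05 in CD73- and 85.29 in CD73+ cells. Mfng, a glycosyltransferase that modifies Notch receptors, had one 2552 bp away with HEB at 97.06 in CD73- and E2A at 108.97 and HEB at 64.74 in CD73+ cells. Mfng was the only gene of the T cell lists with a score above 100 in such a region. Kit, the receptor for stem cell factor on early progenitors, had HEB at 69.4 in CD73- and E2A at 69.56 in CD73+ cells within the gene, 2532 bp from a DN3 region. Erg, an Ets family factor of stem and early T cell progenitors, had E2A at 52.79 and 54.62. Il12rb2, a subunit of the IL-12 receptor, had E2A at 52.36 in CD73- and HEB at 53.5 in CD73+ cells. The histone deacetylase genes Hdac4 (E2A at 58.32 and 62.49) and Hdac9 (E2A at 50.8, then HEB at 52.15) had 1 region each, as did Elmo1, a regulator of Rac in cell movement, with E2A at 54.34 and 56.41. Kit, Erg, Il12rb2, Hdac4, Hdac9 and Elmo1 all scored under 70.

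Lists of other cell types were counted the same way, beside the 3.01% of all protein-coding genes. No region lay at 12 B lineage genes or 14 stromal genes. The myeloid list had 1 of 12, Itgam, with scores of 53.26 and 79.03 in CD73- and 75.92 for HEB in CD73+ cells. The erythroid list had 2 of 11, the alpha-globin genes Hba-a1 and Hba-a2, which shared 1 region at 51.7 and 59.83 for E2A. The neuronal list had 12 of 16, among them Nrxn3, a synaptic adhesion gene (E2A at 72.09 and 76.88), Ptprd (HEB at 67.96, then E2A at 129) and Lrp1b with 3 regions. That list was of long genes, with a median span of 1330120 bp. Of all genes with a span of at least 500 kb, 37.9% had a shared CD73 region. The neuronal count was not tested against genes of like length, so nothing is read from it. Peak lists do not measure expression, so the sorted cell types were not checked against marker genes here.

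**Figure D5:**
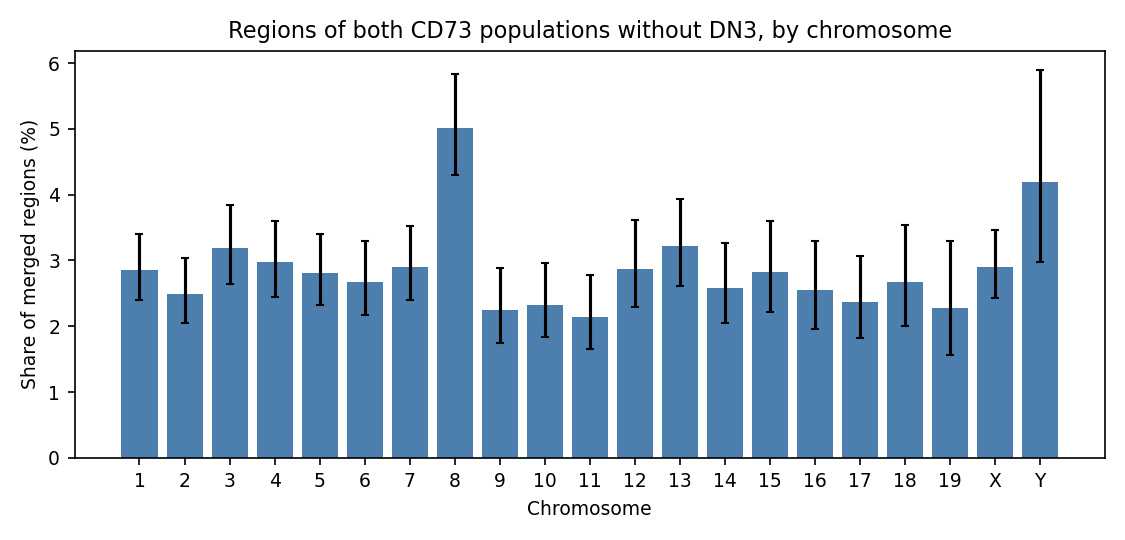
Bars give shared CD73 regions as a percent of all merged regions (y axis) on each chromosome (x axis), with 95% Wilson intervals. Chromosome 8 stands at 5.01% and Y at 4.19%, and the others lie between 2.15% and 3.21%.

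On chromosome 8, 155 of 3094 merged regions (5.01%, 4.30 to 5.84) were shared CD73 regions, against 2.15% to 3.21% on the other autosomes and X, and 4.19% on Y. A single block accounted for much of this. Between 19680616 and 20828106 on chromosome 8, in build mm10, lay 64 shared CD73 regions (3.83% of all), among 296 merged regions of which 106 had a DN3 peak. The 5 protein-coding genes there are 4930467E23Rik, 9530057J20Rik, Gm15319, Gm40469 and Gm21119, models named without a function. All 64 lay within 10 kb of a DN3 region, 7 lay in a gene, and their median width was 592.5 bp against 221 bp over all shared CD73 regions. E2A in CD73- cells was at 52 of the 64, HEB in CD73+ cells at 45, HEB in CD73- cells at 31 and E2A in CD73+ cells at 29.

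The block held the highest CD73- E2A score of all shared CD73 regions. It was 299.98, at a region 7496 bp from Gm15319 on chromosome 8 that had all 4 lists, with 121.13 for HEB in CD73- and 91.63 and 102.85 in CD73+ cells. That region lay 349 bp from a DN3 peak. A region 56 bp from a DN3 peak, with 9530057J20Rik as nearest gene 151783 bp away, also had all 4 lists, with 210.75 and 110.42 in CD73- and 77.61 and 242.37 in CD73+ cells. The share of reads that align to more than 1 place there is not given in the sources used here, and its part in the cluster was not tested. Elsewhere the regions were scattered, with 1169 windows of 1 Mb holding at least 1 and 848 of them exactly 1.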

How the data were processed

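Peak lists of 9 libraries (an input, an E2A and an HEB library for each of 3 stages) were used as deposited. The unit is the deposited score in column 5, the authors' minus 10 times the log10 of the peak's p-value against input. It was read from the values and the peak caller and was used to rank peaks within a list. MACS 1.4.2, Bowtie, HOMER and build mm10 are named, per the submitters' processing notes, and per the labels duplicates were joined first. How each tool was run is not given in the sources used here.

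Peaks of the 6 lists were merged where they overlapped by 1 bp and annotated with RefSeq spans of 21900 protein-coding genes and 32851 promoter windows of GRCm38.p6, which has the coordinates of mm10. Promoter windows of chromosome 18, which holds 46 of the regions, were not used here. Shares carry 95% Wilson intervals, for counting error only. No column was left unmatched to a group. The code was tested on simulated data.

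The regions and the 22 gene lists (356 symbols, all matched) were chosen with earlier results of these data known. Named genes are those of the 12 regions of highest joint rank, the 4 highest of each of 4 list combinations, up to 4 per gene list, 6 at promoter windows and 3 on either side of the DN3 limit. Other named regions, such as those at histone genes and on chromosome 8, were chosen after their values were seen. The results were recomputed under 10 other settings (score minimum, DN3 distance, overlap, midpoints, wide peaks, sequences, list length, single factors) and 2 chosen after seeing the data. Versions were numpy 2.4.6, scipy 1.17.1, pandas 2.3.3 and matplotlib 3.10.9 under Python 3.11.15.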

Additional observations from a re-analysis of the deposited data

Results flagged for a closer look

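Sequences outside the 21 chromosomes, which none of the comparisons above used, held 256 merged regions and 684 peaks. On 10 of these sequences lay 17 regions with peaks in both CD73 populations and none in DN3 cells. They are named here because they are signal in data outside the main measurement. With them the total was 1686 regions. These sequences are unplaced or unlocalised pieces of the assembly.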

How the results depend on the processing

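Shares and counts kept within their counting error or within 1.5 times under all alternatives but the following. With peaks of at least 100 in all 6 lists, 65 regions were left, of which 41.5% overlapped a gene span and 72.3% had the same factor in both populations, with 0 list genes. With that minimum for the CD73 lists only, 17 were left, with 23.5%, 58.8% and 0 list genes, and the 1 promoter window met held CAGNTG (100%). Without peaks wider than 3000 bp, DN3 peaks among them, 3.62% of 1851 regions scored at least 100 in both populations. With equal list lengths of 9407 peaks there were 1060 regions, of which 62.5% had the same factor and 1.98% scored at least 100 in both, at 15 list genes (genes of the 22 lists, 25 with all peaks). E2A lists alone gave 1078 regions, 4.82% and 13 genes, and HEB lists alone gave 523 regions, 6.50% and 10 genes, with 35.6% in a gene span. With the lists of 1 factor alone, DN3 peaks of the other factor no longer excluded a region. Exchanging the CD73+ lists moved the same-factor share to 52.2% and the share near start sites to 1.75% for HEB in both populations. The share scoring at least 100 in both is 100% by construction under a minimum of 100 and was not recomputed. No paired analysis was possible because each group has 1 pooled list, and for the same reason no replicate could be left out. Depth is unknown, so a missing DN3 peak sets no limit on binding.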

Other observations

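The highest CD73+ HEB score of all shared CD73 regions was 489.63, at a region on chromosome 1, 16245 bp from Icos, which encodes an inducible costimulatory receptor of T cells. It had E2A at 69.42 in CD73- cells and lay beyond the 10 kb used to count genes. Inside Rcbtb2, HEB scored 67.14 in CD73- and 277.48 in CD73+ cells. The region 81740 bp from Tle1, a Groucho family corepressor gene, was one of the few with a high HEB score in both populations, at 149.48 and 203.37, with E2A at 61.55 in CD73- cells. At 2244 bp from Capn11, a calpain gene, HEB scored 52.23 and 185.35. Near Grk6, a kinase that turns off G protein-coupled receptors, it scored 58 and 133.38. Near Hsp90ab1, a chaperone gene, HEB scored 54.8 in CD73- and E2A 67.21 in CD73+ cells. These 6 regions were chosen after their values were seen.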
